A study of Mus musculus with 2 samples.

Results

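The genes described here are 9 genes of the pre-B cell receptor and of B lineage commitment, measured in sorted progenitors of innate lymphoid cells (ILCs). They were chosen by name, as the probe sets whose platform annotation gives the symbol Igll1, Vpreb1, Vpreb3, Cd79a, Cd79b, Blnk, Pax5, Ebf1 or Pou2af1. All 9 were found, with 1 probe set each, among 19505 genes named on the array. The study compared wild-type mice with littermates carrying a deletion of Yeats4, which encodes a reader of acetylated histones, and each genotype had 1 array. The cells of both were sorted from the lineage-negative fraction as CD127-positive and α4β7-positive cells with intermediate c-Kit and Sca-1. The labels do not state the allele, what drives the deletion, the tissue, the age of the mice or the number pooled per array.

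The pre-B cell receptor is the checkpoint through which a developing B cell tests a newly rearranged immunoglobulin heavy chain. Before any light chain exists, the heavy chain pairs with a surrogate light chain made of the products of Vpreb1 and Igll1 (λ5), and signals through CD79a and CD79b (Igα and Igβ) to the adaptor BLNK. Ebf1 and Pax5 encode the transcription factors that specify the B lineage and hold cells in it, and they switch on many of these receptor genes. Early lymphoid progenitors of the bone marrow can carry some of these transcripts before commitment, and ILC progenitors arise from that same lymphoid branch. Whether such transcripts differ when Yeats4 is deleted is the comparison made here.

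Sequences upstream of the start sites are shown first for 5 of the genes, because these hold the letters of sites that B lineage factors are known to read. RefSeq windows (GRCm38.p6, matched by gene identifier) were found for 8 of the 9 genes, with 2 windows for Ebf1, and Cd79b has none here. Each run below is the 250 bases before a RefSeq start site, written 5′ to 3′ on the gene's strand, with matches in capitals. The windows are chr16:16863986-16864235 (minus strand) for Igll1, chr16:16869256-16869505 (minus strand) for Vpreb1, chr10:75948050-75948299 (plus strand) for Vpreb3, chr7:24897247-24897496 (plus strand) for Cd79a and chr19:40994222-40994471 (minus strand) for Blnk.
Igll1: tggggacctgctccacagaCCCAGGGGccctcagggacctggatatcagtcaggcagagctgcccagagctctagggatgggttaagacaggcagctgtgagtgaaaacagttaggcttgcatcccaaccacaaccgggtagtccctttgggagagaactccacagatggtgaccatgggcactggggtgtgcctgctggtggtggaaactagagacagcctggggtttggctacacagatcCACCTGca
Vpreb1: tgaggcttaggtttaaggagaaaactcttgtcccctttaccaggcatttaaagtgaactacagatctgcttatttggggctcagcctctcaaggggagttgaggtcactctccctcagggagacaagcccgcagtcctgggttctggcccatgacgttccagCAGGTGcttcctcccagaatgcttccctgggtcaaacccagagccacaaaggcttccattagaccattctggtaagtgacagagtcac
Vpreb3: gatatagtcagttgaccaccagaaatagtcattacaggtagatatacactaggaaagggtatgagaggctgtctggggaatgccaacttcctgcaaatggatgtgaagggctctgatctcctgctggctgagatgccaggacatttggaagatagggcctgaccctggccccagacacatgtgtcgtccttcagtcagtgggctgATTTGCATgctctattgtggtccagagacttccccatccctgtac
Cd79a: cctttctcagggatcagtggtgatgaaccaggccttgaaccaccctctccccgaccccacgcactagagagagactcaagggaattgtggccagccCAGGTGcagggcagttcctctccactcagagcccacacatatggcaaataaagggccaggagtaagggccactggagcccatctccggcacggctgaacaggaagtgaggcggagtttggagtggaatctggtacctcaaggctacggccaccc
Blnk: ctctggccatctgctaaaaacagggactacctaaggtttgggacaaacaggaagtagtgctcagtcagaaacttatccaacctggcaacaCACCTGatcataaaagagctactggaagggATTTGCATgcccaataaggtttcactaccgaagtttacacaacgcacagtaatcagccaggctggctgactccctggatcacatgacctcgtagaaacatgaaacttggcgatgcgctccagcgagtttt
The capitals mark 3 motifs searched on both strands: the E-box CAGGTG, read by E proteins, the spaced pair CCCNNGGG, read by EBF factors, and the octamer ATGCAAAT, read by POU factors for which Pou2af1 is a coactivator. The E-box occurred in the windows of 4 of the member genes, Igll1, Vpreb1, Cd79a and Blnk, and in 17.2% of all 32851 windows of this length. The octamer occurred upstream of Vpreb3 and Blnk and in 1.6% of all windows. CCCNNGGG occurred upstream of Igll1 only, and in 11.8% of all windows. No matches of different motifs overlapped. These are matches of letters and no binding was measured.

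All 9 genes read lower on the labelled-knockout array, as the array labelled Yeats4 knockout is called here, than on the wild-type array. Values are RMA expression on the log2 scale, and each pair of values gives wild type first. A difference is the second value minus the first. As measured, the differences ran from -0.52 to -1.37 with a median of -0.95, which is a 1.94-fold lower reading. Among the 10881 genes whose mean of both arrays reached the median of all probe sets (2.88), 41.0% were below 0 and the median difference was 0.08. At least 2-fold lower as measured were 4 of the 9 genes, Igll1, Vpreb1, Vpreb3 and Pax5, against 0.781% of the 10881, and at least 1.5-fold lower were 7, against 5.15%. None of the 9 was 2-fold higher, against 1.56%. All 9 passed that level filter. A single array per genotype leaves no replicate error, no test and no p-value, and mice, RNA preparations and arrays cannot be told apart from genotype. In a bulk sample, fewer cells of a type and less RNA per cell cannot be told apart either.

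**Figure D1:**
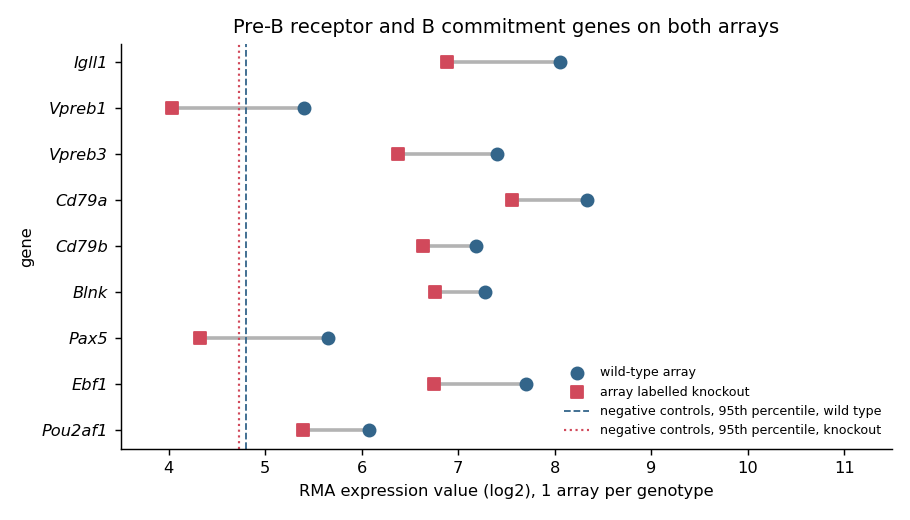
Expression value (log2) of each of the 9 genes on the wild-type array (circles) and the labelled-knockout array (squares), with 1 array per genotype and no error bars. Every square lies to the left of its circle, and for Vpreb1 and Pax5 the square lies under the 95th percentile of the negative control probe sets, drawn as vertical lines at 4.80 (wild type) and 4.73 (knockout).

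Background on these arrays is given by 5222 negative control probe sets. Their 95th percentile was 4.80 in wild type and 4.73 in the labelled knockout, and their 99th percentile was 7.19 and 7.02. On the wild-type array all 9 genes were above the 95th percentile and 5 were above the 99th. On the labelled-knockout array 7 were above the 95th percentile and 1, Cd79a, was above the 99th. Genes of the B lineage were thus read above most negative controls in the wild-type progenitors. Many other genes were as bright. Of the 10881 genes past the level filter, 2400 had a mean level between 5 and 6 and 1593 between 6 and 7. A further 667 lay between 7 and 8 and 469 between 8 and 12. The share of all genes above these percentiles was not counted, here or beside the gene lists below. The second array's label names a deletion of Yeats4, whose own probe set read 5.96 and 5.90. Whether its probes fall in the deleted stretch is not known here, so this does not check the label.

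Igll1, a surrogate light chain gene, and the related Vpreb3 passed 2-fold with readings above background on each array. Vpreb1, the other surrogate light chain gene, was under the background level on the second array. Igll1, which encodes λ5, the constant-like part of the surrogate light chain, read 8.05 in wild type and 6.88 in the labelled knockout. That is a difference of -1.16, or 2.24-fold lower. The 500 genes nearest in level had a median difference of 0.15 and a spread (scaled median absolute deviation) of 0.24, so Igll1 lay 5.35 such spreads below them, farther than any other of the 9. This spread describes scatter among genes on these arrays and is no replicate error. Vpreb1, the variable-like part, read 5.40 and 4.03, a difference of -1.37 as measured. Its second value is under the negative control level, so its place among the 9 is not settled. Set against 4.80 Vpreb1 was 1.51-fold lower, a figure that depends on the level chosen. Vpreb1 has a near-identical copy, Vpreb2, and whether the probes tell them apart is not known here. Vpreb2 read 3.86 and 3.36, near background on both arrays. Vpreb3, a related chain that associates with newly made immunoglobulin chains inside the cell, read 7.40 and 6.38, a difference of -1.02, or 2.03-fold lower. Vpreb3 is the member just past 2-fold, and Ebf1, at 1.94-fold, the member just short of it.

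Igll1 and Vpreb1 lie next to each other on chromosome 16 (gene order of GRCm38.p6). The protein-coding gene on the far side of Vpreb1, Top3b, read 5.53 and 5.87 and was 0.34 higher. Neighbours were sought among genes past the level filter, so genes under it or not measured were passed over. For all 9 genes together, the nearest such protein-coding genes on either side that are not members numbered 16. Their differences ran from -0.43 to 0.84 with a median of 0.06. Of these neighbours 7 were below 0 and 9 above, while 41.0% of genes past the level filter were below 0. None of the neighbours differed 2-fold, against 0.781% of genes lower and 1.56% higher. The neighbours Zfp280b, Gh, Prr29, Ccnj, Layn and Colca2 were under the negative control level on both arrays, so their differences say little.

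The signalling part of the receptor had smaller differences, with a median of -0.55. Cd79a, the Igα chain that carries the receptor's signal into the cell, read 8.33 and 7.56, a difference of -0.76, or 1.70-fold lower. Cd79b, its partner Igβ, read 7.18 and 6.63, a difference of -0.55, or 1.46-fold lower. Blnk, the adaptor that links the kinase SYK to downstream enzymes, read 7.28 and 6.76, a difference of -0.52, or 1.43-fold lower. None of these 3 reached 2-fold. Igll1 and Vpreb3 did, while the figure for Vpreb1 set against 4.80 (1.51-fold) is under the 1.70-fold of Cd79a. With 1 array per genotype no contrast between the receptor's parts has a test.

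The transcription regulators had a median difference of -0.95. Pax5, the commitment factor of the B lineage, read 5.65 and 4.32, a difference of -1.32. The second value is under the negative control level, so Pax5 was at least 1.79-fold lower. Ebf1, which acts with E proteins to specify the lineage and lies upstream of Pax5, read 7.70 and 6.75, a difference of -0.95. It was above the negative control level on both arrays. Pou2af1, the octamer coactivator of B cells, read 6.07 and 5.39, a difference of -0.68, or 1.60-fold lower. It lay 2.34 local spreads below the genes nearest in level, the smallest such distance of the 9. The 3 genes nearest to Igll1 in their pair of values, by Euclidean distance over both arrays, were Epx, the eosinophil peroxidase (8.13 and 6.56), Ebf1 and the kinase Stk17b (7.72 and 7.16).

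**Figure D2:**
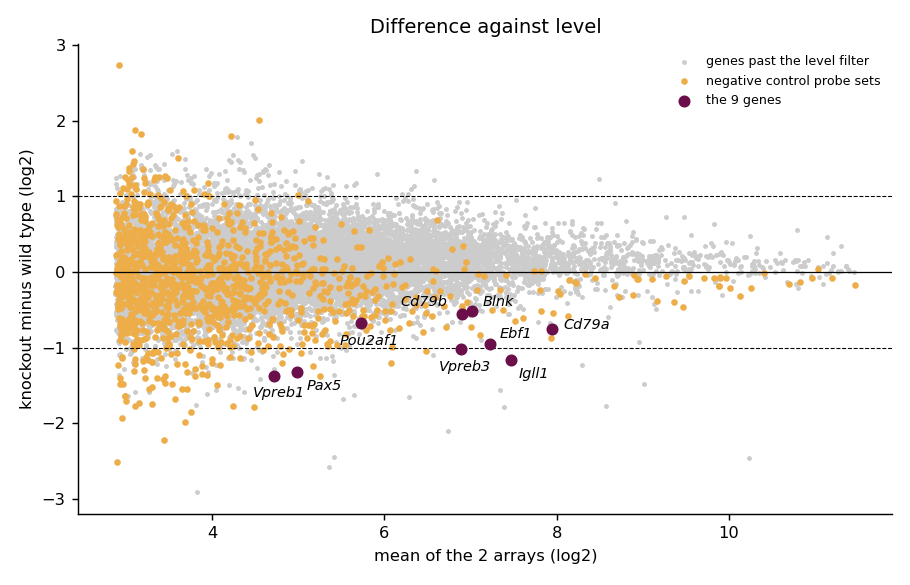
Difference between the arrays (log2, knockout minus wild type) against the mean of both arrays (log2) for the 10881 genes past the level filter (grey), the negative control probe sets at the same levels (orange) and the 9 genes (purple, named), with dashed lines at 2-fold. The 9 genes lie along the lower edge of the grey genes, and the brighter negative controls also lie mostly below 0.

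Negative controls as bright as these genes were also lower on the labelled-knockout array. At mean levels between 7 and 8 there were 17 of them, with differences from -0.87 to 0.01 and a median of -0.50, while the 667 genes of that range had a median of 0.16. Within 0.5 of each gene's mean level there were between 15 and 228 negative controls, and their median difference lay between -0.50 and -0.09. All 9 genes were below the median of the controls around them. Igll1 and Ebf1 were below every control in that range. For Vpreb1, 2 of 228 controls were as low, for Pax5 1 of 180, for Vpreb3 1 of 30 and for Cd79a 1 of 15. For Cd79b 6 of 30 were as low, for Blnk 5 of 27 and for Pou2af1 15 of 96. Thus 7 of the 9 genes lay inside the range of controls of like brightness. Among genes of like level, smaller shares were as low as Cd79b, Blnk and Pou2af1 (19 of 1201 for Cd79b, 23 of 1075 for Blnk and 29 of 2220 for Pou2af1). What lowered the bright controls was not tested.

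Which of the genes passed 2-fold depended on how the background was handled. With values under 4.80 raised to it, 2 of the 9 were at least 2-fold lower, Igll1 (-1.16) and Vpreb3 (-1.02), against 0.211% of genes, and Vpreb1 (-0.60) and Pax5 (-0.84) were not. All 9 stayed below 0, against 19.1% of genes. With a level-dependent correction fitted on the negative controls, added after seeing the data, it was the other 2, Vpreb1 (-1.19) and Pax5 (-1.12), against 0.496% of genes, while Igll1 was at -0.91 and Vpreb3 at -0.76. All 9 were below 0 there too, against 26.1% of genes, and none of them was 2-fold lower under both settings. With values raised to the 99th percentile of the negative controls (7.19), 5 of the 9 stayed below 0, against 2.46% of genes, the other 4 were at 0 and none was 2-fold lower, against 0.046% of genes.

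**Figure D3:**
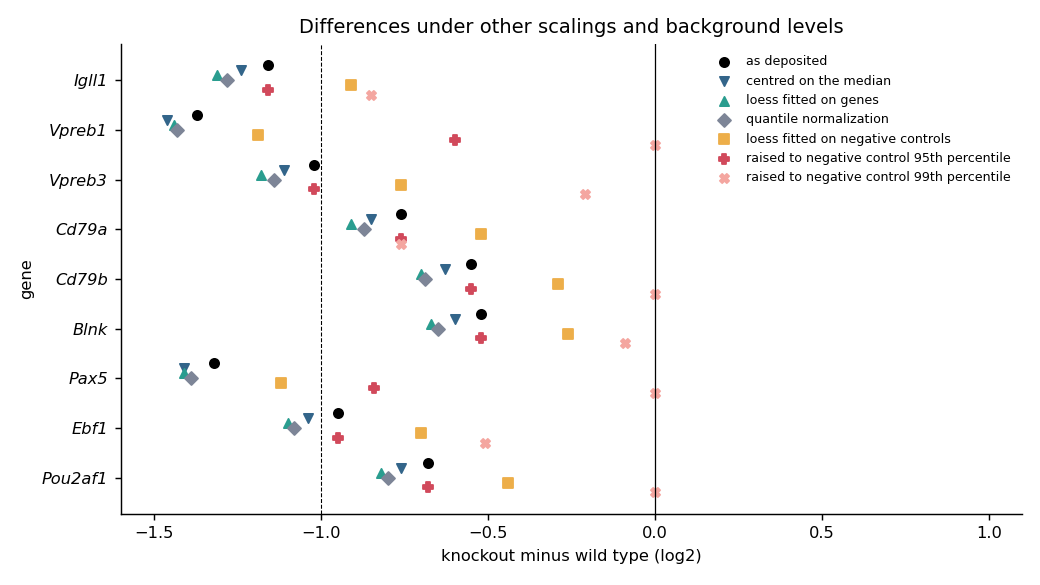
Difference of each of the 9 genes (log2, knockout minus wild type) as deposited and under 6 other scalings or background levels, with a dashed line at 2-fold lower. The corrections fitted on all genes move the points to lower values, the one fitted on negative controls moves them toward 0, and raising values to the 99th percentile of the controls puts Vpreb1, Cd79b, Pax5 and Pou2af1 at 0.

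Most other components of pre-B receptor signalling are shared with myeloid and T cells, and their differences had both signs. Of 18 measured genes of this list, 11 were below 0 and 7 above, while 41.0% of genes past the filter were below 0. The list median was -0.19 and ran from -0.32 to 0.07 over the alternatives. It was above 0 with the loess fitted on the negative controls. Blk, a SRC family kinase found mainly in B lineage cells, was the only gene of the 18 at least 2-fold lower as measured. The share over all genes past the level filter was 0.781%. With values raised to the 95th percentile of the negative controls none of the 18 was 2-fold lower, against 0.211% of genes. Blk read 5.16 and 3.89, the second under the negative control level, a difference of -1.27. Fyn, a related kinase that T cells also use, was at -0.60 and Prkcb, the protein kinase C of B cell receptor signalling, at -0.50. Syk (-0.26), the kinase that acts first on the CD79 tails, and Btk (0.42), the kinase that activates phospholipase C, differed in sign.

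Among 15 other B lineage genes, 13 were below 0 and 2 above, with a median of -0.25 (-0.37 to 0.00 over the alternatives). Of all genes past the level filter 41.0% were below 0. On neither array did 5 of the 15 exceed the negative control level. With values raised to the 95th percentile of the negative controls 8 were below 0, against 19.1% of genes, and the median was -0.03. Lef1, a factor of pro-B cells and of T cells, read 6.46 and 4.83, a difference of -1.62 (3.08-fold lower). It was the only gene of this list past 2-fold, against 0.781% of all genes past the filter. Its second value was close to the negative control level of that array (4.73). With values raised to the 99th percentile of the negative controls none of the list was 2-fold lower, against 0.046% of genes. Akap12 (-0.84) and Myl4 (-0.80) were near background on both arrays. Bach2, a repressor active in B cells, was at -0.62, its second value under the negative control level. Cd24a (-0.03), a surface antigen of many early blood cells, and Spib (-0.07), a factor of B cells and plasmacytoid dendritic cells, differed little.

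Regulators of B cell fate that act early, before or beside Ebf1, differed in both directions. Of the 15 measured, 6 were below 0 and 9 above, while 41.0% of genes past the filter were below 0. None of the 15 differed 2-fold, against 0.781% of genes lower and 1.56% higher. The list median was 0.03 and ran from -0.12 to 0.29 over the alternatives. Il7r, the interleukin 7 receptor chain and the CD127 of the sort, read 7.07 and 6.38 (-0.70). Flt3, the receptor of early lymphoid progenitors, was at 0.46, and Gfi1, a repressor, was at 0.63, its wild-type value being under the negative control level. Tcf3, which encodes the E proteins that bind the E-box, was at -0.31, Foxo1 at -0.41 and Ikzf1, which encodes Ikaros, at 0.02. Dntt, the terminal transferase of early lymphoid cells, read 7.81 and 7.72, and Ly6d, a surface antigen of B-biased lymphoid progenitors, read 8.46 and 8.35. Both were above the 99th percentile of the negative controls on each array, with differences of -0.09 and -0.11. Rag2 was near background on both arrays (0.28).

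**Figure D4:**
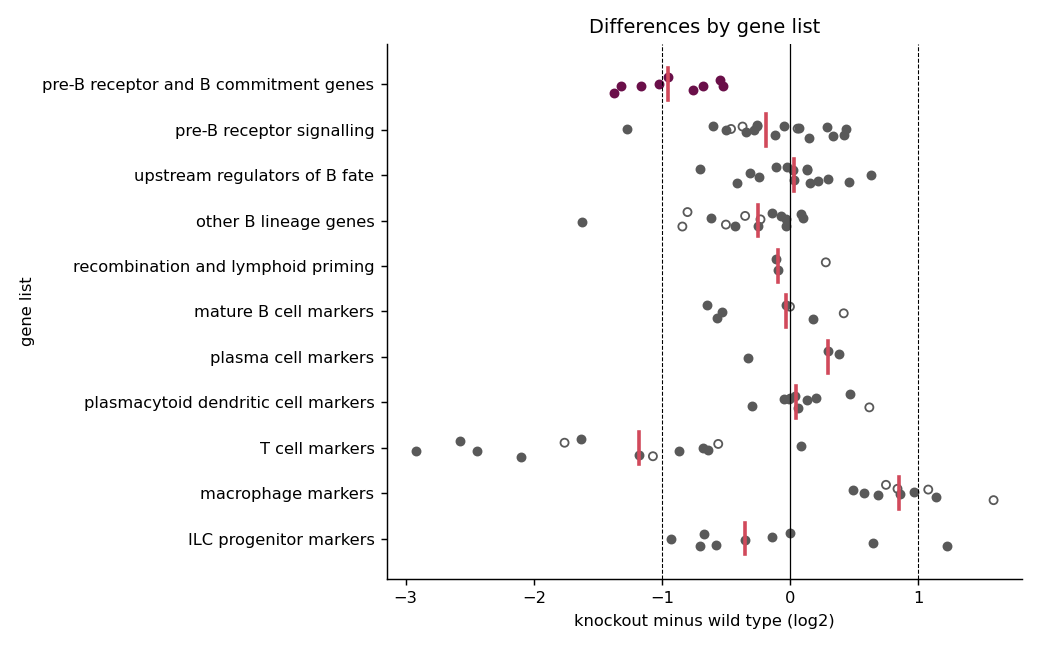
Difference (log2, knockout minus wild type) of each gene past the level filter in the 9 genes (purple) and in 10 further gene lists (grey), with open symbols for genes under the negative control level on both arrays, red bars for list medians and dashed lines at 2-fold. The 9 genes (median -0.95) and T cell markers (-1.18) lie lowest, macrophage markers (0.85) highest, and the upstream regulators (0.03) and plasmacytoid dendritic cell markers (0.05) around 0.

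Markers of other cells in the sorted sample were read beside the 9 genes. Of 10 measured mature B cell markers, 5 exceeded the negative control level in wild type and 4 in the labelled knockout. Their defining genes Ms4a1, which encodes CD20 (3.06 and 2.65), and Cr2 (1.66 and 1.90) were under that level on both. The summed linear level of the list was 568 and 513. Past the filter, 4 of 7 were below 0, against 41.0% of genes. These 4 included Ccr7 (-0.57), Tnfrsf13c (-0.53) and Fcmr (-0.65 as measured, its second value under the negative control level). The median of the 7 was -0.03 (-0.28 to 0.10 over the alternatives). Of 5 measured plasma cell markers 3 passed the filter, with a median of 0.30: Jchain at 0.38, Xbp1 at 0.30 and Sdc1 at -0.33. These 3 were above the negative control level on both arrays, while Prdm1 and Tnfrsf17 were under it on both. The summed level of all 5 was 1371 and 1731, most of it from Jchain, which read 9.85 and 10.23.

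Plasmacytoid dendritic cells share Blnk, Spib and other genes with B cells, and their markers read close on both arrays. Siglech read 7.50 and 7.45, and 9 of 11 measured markers were above the negative control level on each array. The summed level was 1405 and 1399, against 1422 and 784 for the 9 genes. Bst2 was at 0.47, Irf7, near background, at 0.62 and Cox6a2 at -0.30, with a list median of 0.05 that ran from -0.10 to 0.31 over the alternatives.

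T cell markers were lower on the same array. Of 14 measured, 10 exceeded the negative control level in wild type and 5 in the labelled knockout, and the summed level was 874 and 326. Past the filter 8 of 13 were at least 2-fold lower, as measured, against 0.781% of genes, with a median of -1.18. With values raised to the 95th percentile of the negative controls 5 were, against 0.211% of genes, with a median of -0.65. At the 99th percentile none was, against 0.046% of genes, with a median of 0.00. The receptor chain gene Cd3e read 7.79 and 5.69 (-2.10), and the coreceptor gene Cd8a 6.64 and 4.19, the second under the negative control level. Cd4 read 5.28 and 5.37 (0.09), the only gene of the 13 above 0. Macrophage markers were higher, with 10 of 10 above 0, whereas 41.0% of all genes past the filter were below 0. Their median was 0.85 and their summed level 323 and 566. As measured, 3 of the 10 were at least 2-fold higher, against 1.56% of genes. These were Axl and, near background on both arrays, Cd5l and Spic. On neither array did 4 of the 10 exceed the negative control level, and the list median was 0.54 with values raised to the 95th percentile and 0.00 at the 99th. Axl, a receptor of macrophages, read 4.98 and 6.12 (1.14). Of 9 measured ILC progenitor markers all exceeded the negative control level in wild type and 8 in the labelled knockout, with a summed level of 1721 and 1639. Of these 9, 6 were below 0 and 3 above, while 41.0% of genes past the filter were below 0. The list median was -0.35 (-0.44 to 0.00 over the alternatives). Id2, the E protein antagonist, was 1.23 higher, and Nfil3 was at -0.93. The part of these other cells in the lower readings of the 9 genes was not tested.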

How the data were processed

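The members and gene lists were chosen with earlier results of these data known. The authors deposited 1 log2 expression value per probe set and array, made with Affymetrix Power Tools and RMA per the submitters' processing notes, which corrects background, applies quantile normalization and summarises probes, so a shift in the RNA content of whole cells is not visible. Tool versions and the genome build were not given in the sources used here. Values were used as deposited. The series text names another Affymetrix design than the one the probe set names match, so gene names rest on the platform annotation. A gene was its probe set of highest mean, and the level filter was the median of all 29129 probe sets. Each difference was set beside the 500 genes and the negative controls nearest in level. No test was possible with 1 array per genotype. Calculations used Python 3.11.15, numpy 2.4.6, pandas 2.3.3 and statsmodels 0.14.6 (loess, span 0.3), and were checked on simulated data. Alternatives were 2 other level filters, centring, loess, quantile normalization, the mean of probe sets, a 1.5-fold threshold, and values raised to the 95th or 99th percentile of the negative controls. A loess fitted on the negative controls was added after seeing the data. The text names all members, Yeats4, the 3 genes nearest to Igll1 and, per list, the 3 largest differences past the filter and further 2-fold ones, up to 6, from which T cell, macrophage and ILC examples are given. Further genes are examples chosen after their values were seen. The number of arrays limits the precision.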

Additional observations from a re-analysis of the deposited data

How the results depend on the processing

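No paired analysis was possible because each genotype has 1 array, and for the same reason no replicate could be left out. All 9 genes stayed below 0 without the level filter, after centring, loess, quantile normalization, averaging of probe sets, raising to the 95th percentile of the negative controls and the loess fitted on those controls, and 8 of 8 did with the filter at the 75th percentile (4.84), which Vpreb1 did not pass. Values raised to the 99th percentile gave 5 below 0 and a median of -0.09. At least 2-fold lower were 4 genes as deposited, 5 after centring, loess or quantile normalization, 2 with values raised to the 95th percentile, 2 with the loess fitted on the negative controls and 0 with values raised to the 99th percentile, while 7 were at least 1.5-fold lower. Over the whole table, 85 genes were 2-fold lower and 170 higher. These counts were 137 and 227 without a filter, 25 and 35 with the stricter filter, 118 and 123 after centring, 560 and 997 at 1.5-fold, 23 and 19 with values raised to the 95th percentile, 5 and 1 to the 99th, and 54 and 356 with the loess fitted on the negative controls, which put the median of all genes at 0.28 in place of 0.08. The cause of these shifts was not tested, beyond the fewer genes that the stricter filter leaves.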
